A study of Mus musculus with 18 samples.

Results

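Ifit1, Ifit2, Ifit3, Isg15, Irf7, Oas1a, Oasl1, Rsad2 and Usp18 are 9 interferon-stimulated genes. They were taken by name from the liver count table, which holds 32285 genes in 18 libraries, and all 9 were present and passed the filter on low counts that kept 12847 genes for testing. Each library came from the liver of a different mouse, and each of the 3 groups held 6 mice. Space pups were the offspring of sperm made by transplanted GS cells, a culture of spermatogonial stem cells from mouse testis, and these cells had first spent 6 months in a freezer of the International Space Station. For Ground pups the GS cells were kept frozen on Earth over the same 6 months. The GS cells were of DBA/2 origin and were transplanted into the testes of W mice (WBB6F1-W/Wv), whose Kit mutations leave them without germ cells of their own, and those males were mated with C57BL/6 females. The pups were B6D2F1 by strain label, wild-type by genotype label and 10 weeks old. BDF1 mice were wild-type controls of the same cross, and their age is not given. The study recognised donor-derived pups by an EGFP transgene, and whether the sequenced pups carried it is not stated. Sires and litters are not given either, so the p-values measure the spread between these mice only, and age, litter and group cannot be told apart where controls are compared with pups.

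Interferons are secreted proteins that signal the presence of viruses or other foreign nucleic acid. Type I interferons bind the receptor pair IFNAR1 and IFNAR2, which leads to assembly of a transcription factor complex that holds IRF9. It binds the interferon-stimulated response element (ISRE) before many antiviral genes. Liver carries such genes at a low resting level in hepatocytes and in its resident macrophages, the Kupffer cells. The 9 genes cover several arms of the response. Ifit1, Ifit2 and Ifit3 encode proteins that bind foreign RNA or support that binding, Isg15 encodes a ubiquitin-like protein that is joined to other proteins, and Usp18 encodes the protease that removes it and also dampens signalling at the interferon receptor. Oas1a belongs to the oligoadenylate synthetases that activate RNase L, Oasl1 is their inactive relative, Rsad2 encodes viperin, which makes a chain-terminating nucleotide, and Irf7 encodes the transcription factor that amplifies production of type I interferon.

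Promoter sequences are shown for the members in which an ISRE core was found, since the 9 genes moved together across libraries as described below. The core was searched as 2 copies of GAAA separated by any 2 bases, on both strands, from 250 bases before to 50 bases after each RefSeq transcription start (GRCm38.p6). Capitals mark the matches, and 15 flanking bases are given on each side where they lie before the transcription start. Of 8 members with a window in the table, 5 held at least 1 match. Over all promoters in the table, 1131 of 32851 windows (3.44%) held one, and counted by gene, 1079 of 27025 genes (3.99%) did.
Ifit1, chr19:34640770-34640828, plus strand: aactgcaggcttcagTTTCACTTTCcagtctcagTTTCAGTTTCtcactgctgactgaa
Ifit3, chr19:34583358-34583431, plus strand: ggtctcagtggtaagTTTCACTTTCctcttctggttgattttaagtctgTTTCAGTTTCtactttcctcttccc
Isg15, chr4:156200860-156200911, minus strand: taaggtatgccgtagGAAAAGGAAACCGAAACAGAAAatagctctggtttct
Oas1a, chr5:120907526-120907560, minus strand: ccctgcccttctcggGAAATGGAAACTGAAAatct
Rsad2, chr12:26456548-26456587, minus strand: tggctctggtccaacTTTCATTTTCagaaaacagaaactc
Sequences are written 5′ to 3′ on the strand of the gene. Isg15 held 3 overlapping matches and Oas1a 2 overlapping matches, all on the gene's own strand. Ifit1 and Ifit3 held 2 separate matches each and Rsad2 held 1, all on the opposite strand, where the core reads as 2 copies of TTTC separated by 2 bases. No match to these letters lay in the windows of Ifit2 (2 windows), Irf7 and Oasl1. Usp18 has no window in the table.

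Total counts ranged from 15407450 to 20562351 per library. Levels are given in CPM, counts per 1000000 of the library size after TMM scaling, a correction for differences in RNA composition. The replicate numbers fell into 2 sets: replicates 1 to 3 of every group had 0 to 187 Xist counts, and replicates 4 to 6 had 12218 to 21557. Xist is the RNA of the inactive X chromosome. Counts of Y-linked genes were 1822 to 2482 in replicates 1 to 3 and 0 to 26 in replicates 4 to 6. By these genes, replicates 1 to 3 of every group read as male and replicates 4 to 6 as female. The study states that males and females of each pup group were analysed, and the labels give no sex. Groups were therefore compared over all 6 libraries and also within each set of 3. Space replicate 4, Ground replicate 5 and Ground replicate 6 stood apart from the rest by Serpina6, the gene for corticosteroid-binding globulin, at 30906 to 45519 CPM against at most 998 in the other 15 libraries. Alb, the albumin gene and a hepatocyte marker, was at 195157 to 341539 CPM in all 6 pup libraries of replicates 4 to 6, against 38351 to 75122 CPM in the other 12 libraries. Values that rest on these libraries are given with and without them.

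Per kilobase of annotated exon, Isg15 was the most abundant member, with 20.03 ± 14.1 CPM per kb (SD, n = 18), followed by Irf7 with 10.8 ± 4.91. Ifit3 (6.66 ± 5.45), Oasl1 (6.28 ± 2.55) and Ifit1 (5.31 ± 4.42) came next, and these 3 neighbours lay within each other's spread. Usp18 (3.57 ± 2.29) and Rsad2 (2.62 ± 1.80) were lower, and Oas1a (1.09 ± 0.711) and Ifit2 (0.685 ± 0.318) were the scarcest. Every member had at least 16 counts in every library, and the highest value was 1442 counts, for Irf7. In mm10, with GENCODE M21 gene models, the 3 Ifit genes lie side by side on the plus strand, Ifit2 at chr19:34550694-34576419, Ifit3 at chr19:34583531-34588731 and Ifit1 at chr19:34640871-34650009. These gene models, also used for exon lengths, are those named in the study's methods, which describe another kit and sequencer than the labels do, so that their match to this count table is uncertain. Isg15 lies at chr4:156199424-156200818, Oas1a at chr5:120896256-120907521 and Rsad2 at chr12:26442746-26456452, all on the minus strand. Irf7 at chr7:141262706-141266481 overlaps Phrf1, Oasl1 at chr5:114923240-114937915 overlaps Gm13822, and Usp18 at chr6:121245906-121270917 overlaps Gm44148. Reads shared with these neighbours, or with the close relatives Ifit3b (10 to 174 counts), Oas1g (4 to 27 counts) and Ifit1bl1 (0 to 14 counts), may have been split in counting, so the levels of those members are uncertain to that extent.

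Ifit1 stood highest in Space replicates 5 and 6. Its level was 5.19, 9.01, 8.38, 5.73, 42.8 and 44.4 CPM in Space replicates 1 to 6. In Ground replicates 1 to 6 it was 11.0, 6.46, 4.85, 9.85, 5.18 and 7.18 CPM, and in BDF1 replicates 1 to 6 it was 13.4, 11.9, 11.1, 20.5, 18.1 and 18.6 CPM. Every BDF1 library exceeded every Ground library, while Space pups lay below all BDF1 libraries in replicates 1 to 4 and above all of them in replicates 5 and 6. Ifit3 was likewise highest in Space replicates 5 and 6. Ifit3 was 4.07, 4.82, 7.05, 7.46, 35.3 and 35.9 CPM in Space pups and 7.73, 7.72, 4.85, 11.5, 4.46 and 6.21 CPM in Ground pups, in replicate order. BDF1 mice had 7.48, 7.45, 10.4, 14.1, 16.0 and 16.6 CPM of Ifit3, so that Ground and BDF1 overlapped in replicates 1 to 3 and were separate in replicates 4 to 6. Ifit2 was the scarcest and least variable of the family, at 1.71, 1.00, 1.65, 1.96, 5.94 and 5.35 CPM in Space pups. Ground pups had 2.69, 1.52, 2.37, 2.59, 2.69 and 2.14 CPM of Ifit2 and BDF1 mice 2.12, 2.30, 3.50, 2.67, 3.45 and 2.76 CPM. The Ground and BDF1 values of Ifit2 overlapped in both replicate sets.

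Isg15 and Usp18, the modifier and its protease, separated Ground pups from BDF1 mice without overlap. Isg15 was 11.1, 7.35, 5.16, 9.02, 4.53 and 3.73 CPM in Ground replicates 1 to 6 and 18.2, 18.0, 25.0, 18.8, 20.2 and 20.3 CPM in BDF1 replicates 1 to 6. Space pups had 6.66, 9.51, 11.4, 6.83, 41.2 and 35.7 CPM of Isg15. The first 4 Space libraries thus lay within or near the Ground range, and replicates 5 and 6 lay above every BDF1 library. Usp18 was 8.13, 5.72, 4.53, 6.90, 3.41 and 3.31 CPM in Ground pups and 11.2, 10.2, 14.2, 14.7, 15.6 and 15.1 CPM in BDF1 mice. In Space pups Usp18 was 4.42, 5.50, 5.61, 4.55, 20.8 and 25.2 CPM. The lowest BDF1 value of Usp18, 10.2 CPM, was above the highest Ground value, 8.13 CPM.

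Oasl1 and Oas1a differed less between Ground pups and BDF1 mice. Oasl1 was 12.1, 12.1, 16.0, 14.8, 32.6 and 33.6 CPM in Space pups, 17.0, 11.9, 9.16, 12.97, 15.8 and 8.97 CPM in Ground pups and 17.8, 13.3, 15.2, 17.1, 17.4 and 16.7 CPM in BDF1 mice. Oas1a was 1.36, 1.19, 1.33, 2.43, 5.04 and 5.75 CPM in Space pups, 1.76, 0.893, 1.05, 2.65, 1.18 and 1.31 CPM in Ground pups and 1.08, 1.59, 1.78, 1.53, 2.60 and 2.46 CPM in BDF1 mice. For both genes the groups overlapped over all libraries apart from Space replicates 5 and 6. Within replicates 4 to 6, however, every Ground library lay below every BDF1 library for Oasl1. Rsad2 was 5.72, 7.63, 6.25, 5.89, 26.8 and 35.0 CPM in Space pups. By the ratio of the highest to the lowest library, Ground pups ranged more widely for Rsad2 than for the other members, with 14.5, 5.78, 8.43, 10.8, 7.94 and 3.38 CPM, against 12.3, 13.5, 10.3, 11.7, 10.1 and 8.73 CPM in BDF1 mice. The highest of the Ground values of Rsad2 was above every BDF1 value.

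Irf7 had the most counts of the 9 genes. It was 23.3, 30.8, 32.7, 33.1, 81.9 and 82.9 CPM in Space pups and 31.8, 23.9, 21.6, 38.6, 24.7 and 21.9 CPM in Ground pups. BDF1 mice had 41.9, 52.7, 53.8, 37.0, 50.7 and 49.7 CPM of Irf7. Ground replicate 4 lay above the lowest BDF1 library, and the other 5 Ground libraries lay below all BDF1 libraries.

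**Figure D1:**
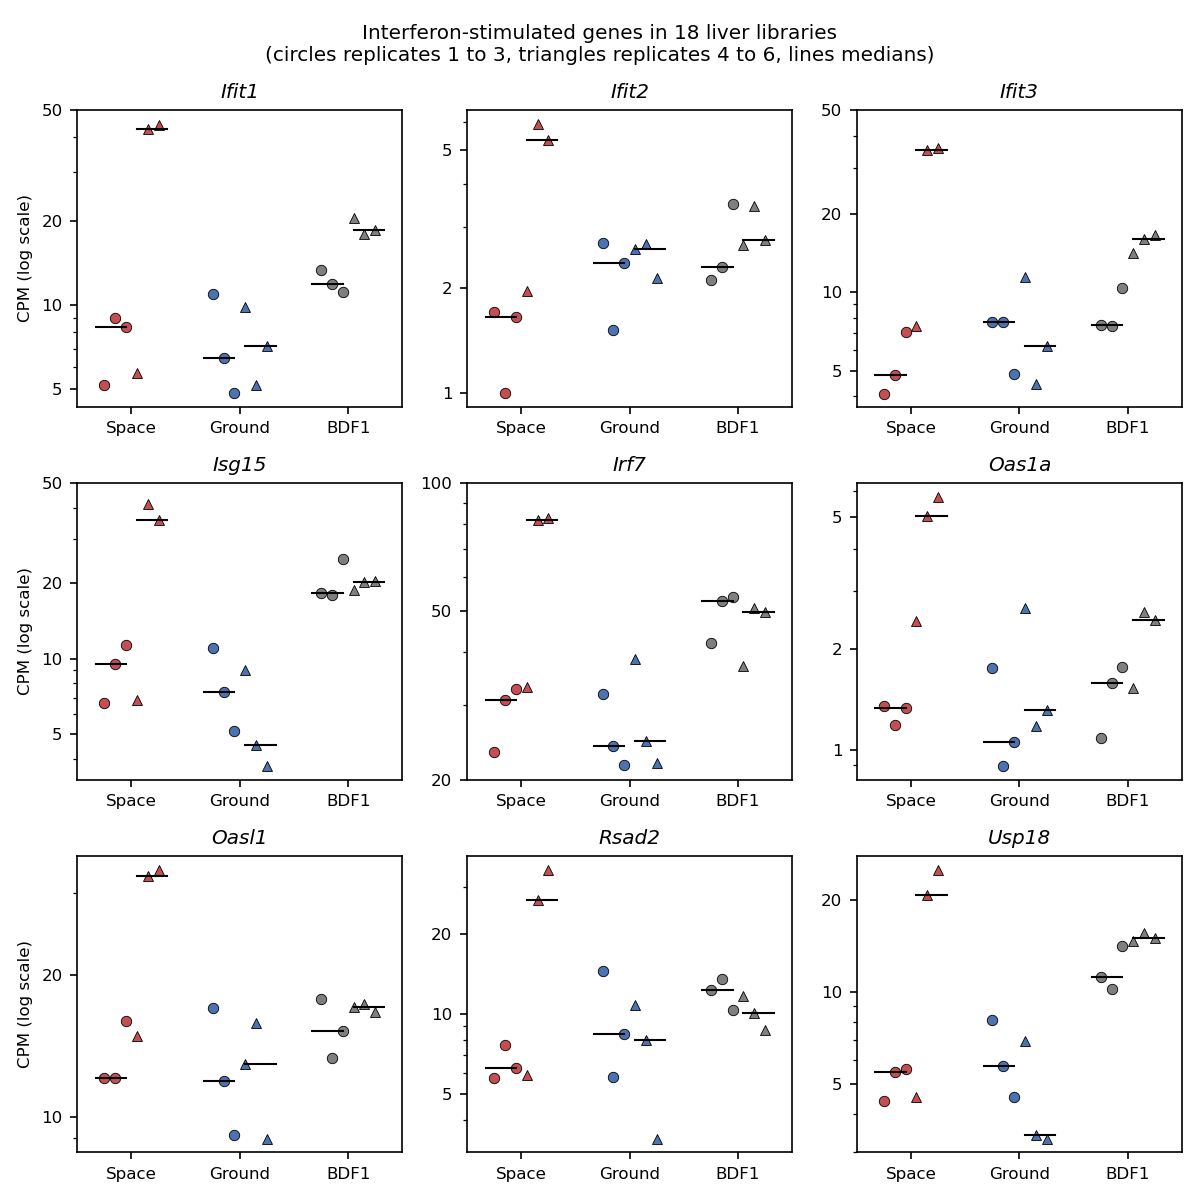
Level of each of the 9 genes in each library, in CPM on a log axis, by group. Circles are replicates 1 to 3, triangles replicates 4 to 6 and lines the median of each set of 3. In every panel the triangles of Space replicates 5 and 6 are the 2 highest of 18 points, and Space replicate 4 lies far below them.

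Space replicates 5 and 6 were the 2 highest of the 18 libraries for 9 of 9 members, Space replicate 6 being highest for 7 and Space replicate 5 for 2. These libraries were singled out after their values were seen, so the ratios that follow are a description without a test. The lower of them exceeded the next highest library by 1.34 (Usp18) to 2.13 (Ifit3) times. It exceeded Space replicate 4, the third library of the same group and set, by 2.07 times for Oas1a, 2.196 for Oasl1, 2.47 for Irf7 and 2.72 for Ifit2, and by 7.46 times for Ifit1, with the other 4 members in between. Summed over the 9 genes, Space replicates 1 to 6 had 64.5, 81.5, 90.3, 82.8, 292 and 304 CPM. The sum was 106, 71.3, 62.0, 105, 69.9 and 58.1 CPM in Ground pups and 125, 131, 145, 138, 154 and 151 CPM in BDF1 mice. BDF1 mice were thus narrowly spread in both sets, and 10 of 12 pup libraries lay below all of them. A change in the number of expressing cells and a change in RNA per cell cannot be told apart in whole liver.

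**Figure D2:**
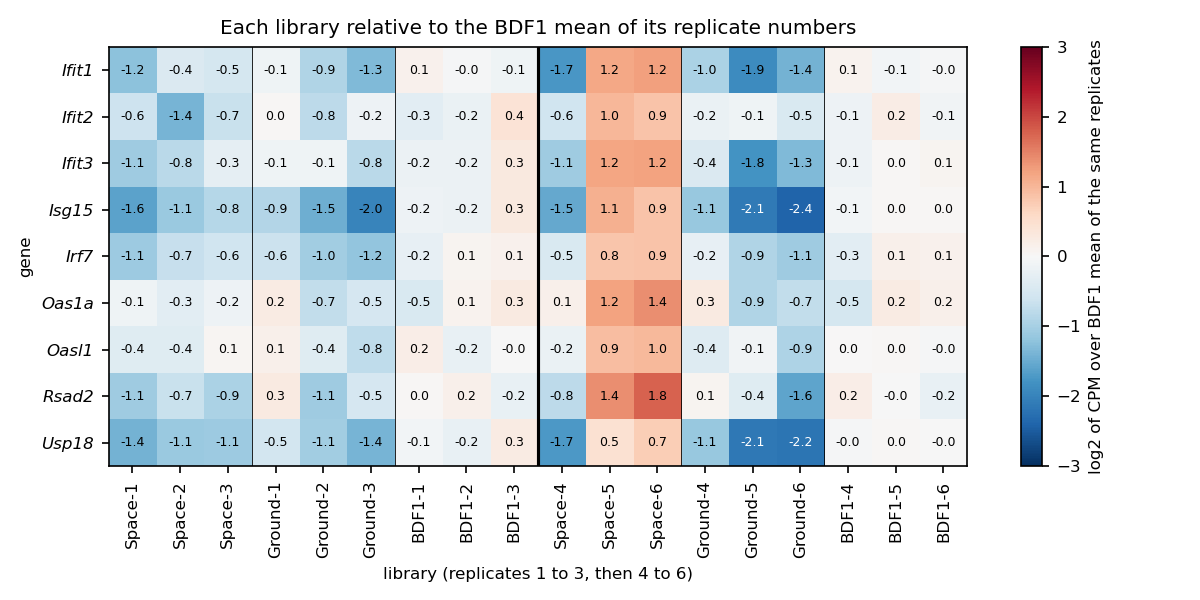
Each library's CPM over the mean of the 3 BDF1 libraries with the same replicate numbers, as log2, for the 9 genes (rows) and 18 libraries (columns). Space replicates 5 and 6 are positive in every row, and Isg15 and Usp18 are negative in every Ground library and in Space replicates 1 to 4.

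Ground pups were compared with BDF1 mice to ask whether descent from frozen GS cells went with a difference in liver expression. Over all 6 libraries, 1 of 9 members fell (edgeR, adjusted p under 0.05), while 3.81% of all tested genes were called in either direction and 2.05% lower. The gene was Isg15, at 6.81 ± 2.85 CPM in Ground pups and 20.1 ± 2.61 CPM in BDF1 mice (SD, n = 6), a log2 change of -1.55 ± 0.42 (SE), 2.94-fold lower, with an adjusted p of 0.0485. With the replicate number as a block, for which no pairing is known, its log2 change was -1.50 with an adjusted p of 0.0624, and the call was lost. When 1 library was left out at a time, the gene was called in 5 of 18 fits, those without Space replicate 1, 4, 5 or 6 or without Ground replicate 1, with log2 changes from -1.75 to -1.43 and adjusted p from 0.0336 to 0.106. Usp18 followed with a log2 change of -1.33 ± 0.41 (adjusted p = 0.0772), Irf7 with -0.81 ± 0.28 (adjusted p = 0.104) and Ifit1 with -1.07 ± 0.49 (adjusted p = 0.221). With the replicate set as a covariate in edgeR, Isg15 (adjusted p = 0.0235), Usp18 (0.0400) and Irf7 (0.0431) were called lower. DESeq2 on group alone called the same 3 (adjusted p = 0.00531, 0.0177 and 0.0464, in that order), and limma voom called 1 member. The share of all genes called under these choices is not given here. In the edgeR fit on group alone, the log2 changes of all 9 members were negative, from -1.55 to -0.26, with a median of -0.76 against 0.02 over all genes tested. The libraries did not overlap for Ifit1, Isg15 and Usp18, all lower in Ground pups, where 1.64% of tested genes were lower without overlap.

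Within replicates 4 to 6, 2 of 9 members fell in Ground pups, where 15.4% of all tested genes were called and 7.53% were lower. Isg15 was 5.76 ± 2.85 CPM in Ground pups and 19.8 ± 0.867 CPM in BDF1 mice (SD, n = 3), a log2 change of -1.77 ± 0.48 with an adjusted p of 0.0201. Usp18 had a log2 change of -1.72 ± 0.43 with an adjusted p of 0.0131. The replicate block left the call of Usp18 (log2 change -1.68, adjusted p = 0.0475) and removed that of Isg15 (log2 change -1.72, adjusted p = 0.0637). Ground replicates 5 and 6, which had high Serpina6, held the lowest summed levels of the set: leaving out either of them, one at a time, gave 0 calls, while leaving out Ground replicate 4 gave 4 and leaving out BDF1 replicate 5 gave 1. When the 9 libraries of replicates 4 to 6 were fitted alone, both calls were lost (Usp18 adjusted p = 0.0744, Isg15 adjusted p = 0.0841), and 6.89% of all genes were called. Within replicates 1 to 3, 0 of 9 members were called by edgeR, where 2.02% of all genes were. There, 3 members had an unadjusted p under 0.05 by edgeR, as did 2092 of all 12847 genes. DESeq2 called 1 member (Irf7, adjusted p = 0.0347) and limma voom called 0. Isg15 had a log2 change of -1.37 ± 0.46 (adjusted p = 0.141) and Irf7 one of -0.94 ± 0.29 (adjusted p = 0.101). The libraries of the 2 groups did not overlap for 4 members in replicates 1 to 3, against 11.5% of tested genes lower without overlap, and for 5 in replicates 4 to 6, against 15.8%. The difference between the sets was not called for any member by edgeR, DESeq2 or limma voom, with unadjusted p between 0.211 and 0.993, where 2.91% of all genes were called.

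Space pups were compared with the same 6 BDF1 mice. Over all libraries 0 of 9 members were called by edgeR, DESeq2 or limma voom, and 3.8% of all tested genes were called by edgeR. No member had an unadjusted p under 0.05 by edgeR, where 2668 of all 12847 genes did. The log2 changes ran from -0.29 ± 0.40 for Usp18 to 0.63 ± 0.40 for Oas1a, and the 6 Space libraries of each gene spread over a wider range than those of the other groups. Within replicates 1 to 3 all 9 log2 changes were negative, from -1.20 ± 0.42 for Usp18 and -1.15 ± 0.46 for Isg15 to -0.19 ± 0.39 for Oas1a. None of the 9 was called by edgeR, DESeq2 or limma voom, and 4.9% of all genes were called by edgeR. An unadjusted p under 0.05 by edgeR was found for 4 members and for 2561 of all 12847 genes. The 3 Space libraries lay below the 3 BDF1 libraries for 7 members, all but Oas1a and Oasl1, where 17.6% of tested genes were lower without overlap. When the 9 libraries of replicates 1 to 3 were fitted alone, without the spread of replicates 4 to 6, Irf7 (log2 change -0.77, adjusted p = 0.0198), Usp18 (-1.20, adjusted p = 0.00887) and Isg15 (-1.15, adjusted p = 0.0239) were called lower, where 8.56% of all genes were called. In the same fit, Irf7, Usp18 and Isg15 were also called lower in Ground pups, with log2 changes of -0.95, -0.96 and -1.38, where 4.4% of all genes were called.

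Within replicates 4 to 6 all 9 log2 changes of Space pups against BDF1 mice were positive, from 0.17 ± 0.39 for Usp18 to 1.16 ± 0.46 for Rsad2. By edgeR 0 of 9 were called, where 12.4% of all genes were. An unadjusted p under 0.05 by edgeR was found for 3 members and for 3828 of all 12847 genes. DESeq2 called 1 member (Oas1a, adjusted p = 0.042) and limma voom called 0. The mean hid a wide spread, since Space replicate 4 lay below or within the BDF1 range and replicates 5 and 6 above it. Without Space replicate 4, the set keeps only Space replicates 5 and 6, the libraries known to be highest for every member, so what follows shows how far 1 library decides the values and is no test of the groups. In that fit the log2 changes ran from 0.61 for Usp18 to 1.60 for Rsad2, and 6 of 9 members were past the threshold, where 6.1% of all genes were. Without Space replicate 4, Ground replicate 5 and Ground replicate 6 together, which keeps the same Space libraries, 8 members were past it, where 10.2% of all genes were.

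Space and Ground pups were compared to ask whether the place of freezing went with a difference. Over all libraries 0 of 9 members were called by edgeR or limma voom, and 0.0% of all tested genes were called by edgeR. DESeq2 gave no adjusted p to Ifit2 and Oas1a in this comparison, over all libraries or within either set, and over all libraries it called 0 of the other 7 members. All 9 log2 changes were positive, from 0.33 ± 0.35 for Ifit2 to 1.44 ± 0.42 for Isg15. Of the 9, 7 had an unadjusted p under 0.05 by edgeR, as did 1186 of all 12847 genes. Within replicates 1 to 3 the changes lay between -0.59 ± 0.36 (Ifit2) and 0.22 ± 0.47 (Isg15). None of those 9 was called by edgeR or limma voom, DESeq2 called 0 of 7, and 0.00778% of all genes were called by edgeR. No member had an unadjusted p under 0.05 by edgeR, where 1244 of all 12847 genes did. The 95% interval of Isg15 reached from -0.77 to 1.22.

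Within replicates 4 to 6 the members stood 1.80-fold (Ifit2) to 4.83-fold (Isg15) higher in Space than in Ground pups. Every one had an unadjusted p under 0.05 by edgeR (0.000208 to 0.0242), where 1817 of all 12847 genes had one under 0.05. After adjustment over all genes 0 of 9 were called by edgeR, where 0.0234% of all genes were called, and the adjusted p lay between 0.125 and 0.281. Limma voom also called 0. DESeq2 called 6 of the 7 members with an adjusted p, namely Irf7, Usp18, Ifit1, Isg15, Oasl1 and Ifit3, with adjusted p between 0.00428 and 0.0235, where it called 1.1% of all genes. Isg15 was 27.9 ± 18.5 CPM in Space and 5.76 ± 2.85 CPM in Ground pups (SD, n = 3), a log2 change of 2.27 ± 0.48. Ifit1 was 31.0 ± 21.9 CPM against 7.40 ± 2.34 CPM, a log2 change of 2.07 ± 0.50. The groups overlapped for every member because of Space replicate 4. Without that library, again as a description that keeps only the 2 highest libraries, the log2 changes ran from 1.19 for Ifit2 to 2.72 for Isg15, and 8 of 9 members were past the threshold, where 0.61% of all genes were. Without Ground replicates 5 and 6 as well, which leaves a single Ground library in the set that is assumed to vary like the others, 0 members were called, where 0.00768% of all genes were.

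**Figure D3:**
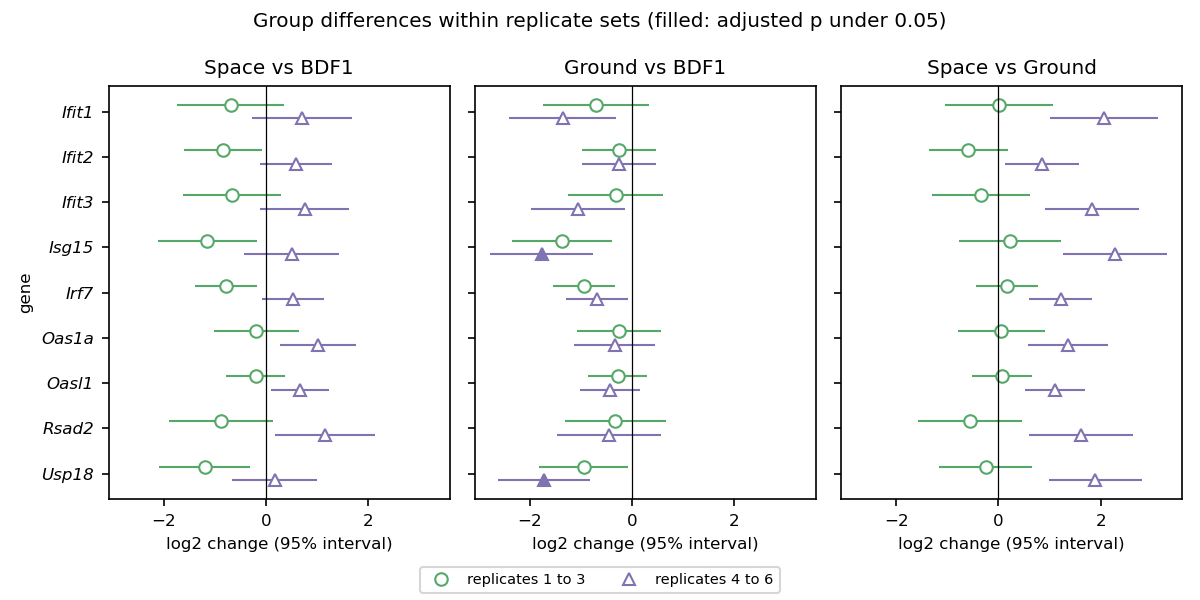
Log2 change of each gene between groups, fitted in edgeR within replicates 1 to 3 (circles) and 4 to 6 (triangles), with 95% intervals. Filled symbols mark an adjusted p under 0.05, which only Isg15 and Usp18 reached, in Ground against BDF1 in replicates 4 to 6. In the Space against Ground panel all 9 triangles lie right of 0, between 0.85 and 2.27.

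The change of the Space difference between replicate sets was tested directly. Against BDF1 mice, all 9 members shifted upward from replicates 1 to 3 to replicates 4 to 6, by 0.87 ± 0.38 (Oasl1) to 2.04 ± 0.67 (Rsad2) on the log2 scale. By edgeR 0 of 9 were called, where 3.45% of all genes were. An unadjusted p under 0.05 by edgeR was found for 8 members and for 2483 of all 12847 genes. DESeq2 called 1 member (Irf7, adjusted p = 0.0319) and limma voom called 0. Against Ground pups the shifts were 1.03 ± 0.39 (Oasl1) to 2.17 ± 0.63 (Ifit3). All 9 had an unadjusted p under 0.05 by edgeR, as did 1003 of all 12847 genes. Of the 9, 0 were called by any of the 3 tools, and 0.0% of all genes were called by edgeR. Without Space replicate 4, which keeps only Space replicates 5 and 6 of their set and so is no test, 7 of 9 were past the threshold against BDF1 mice and 5 of 9 against Ground pups, where 3.13% and 0.178% of all genes were. Without the 3 libraries of high Serpina6, these numbers were 8 and 0, where 6.05% and 0.0% of all genes were. The 2 differences share the Space libraries.

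Replicates 4 to 6 were also compared with replicates 1 to 3 over all groups, with group in the model. Ifit1 (log2 change 0.90 ± 0.28, adjusted p = 0.0188), Ifit2 (0.65 ± 0.20, adjusted p = 0.0173), Ifit3 (1.11 ± 0.25, adjusted p = 0.00247) and Oas1a (0.94 ± 0.22, adjusted p = 0.00279) were higher. These are 4 of 9 members, where 38.8% of all genes were called and 19.6% were higher. DESeq2 called 6 members and limma voom 3. All Ifit3 values of BDF1 replicates 4 to 6, 14.1 to 16.6 CPM, were above those of BDF1 replicates 1 to 3, 7.45 to 10.4 CPM, and the same held for Ifit1. Values of the other 2 called genes, Ifit2 and Oas1a, overlapped between the sets in BDF1 mice. Isg15 and Rsad2 did not show that order in BDF1 mice either. Usp18, not called by edgeR in this comparison, did show it, at 14.7 to 15.6 CPM against 10.2 to 14.2 CPM. In Ground pups the sets overlapped for all 4 called genes. Ifit3, for example, was 4.85 to 7.73 CPM in Ground replicates 1 to 3 and 4.46 to 11.5 CPM in Ground replicates 4 to 6. Sex and any other difference that goes with the replicate number cannot be told apart.

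The 9 genes varied together from mouse to mouse. Over the 36 pairs of members, Pearson's r of log2 CPM across the 18 libraries ran from 0.648 (Ifit2 and Isg15) to 0.971 (Isg15 and Usp18), with a median of 0.817. After each gene was centred within group and replicate set, r ran from 0.520 to 0.978 with a median of 0.796. Without Space replicates 5 and 6, chosen after their values were seen, the median over 16 libraries was 0.624 and Isg15 and Usp18 still had 0.961. These values describe libraries that share scaling and depth. Of 12838 other tested genes, those most like the mean of the members over 18 libraries included Ifit3b (r = 0.951), Ifi44 (0.945), Rtp4 (0.936), Xaf1 (0.931), Shisa5 (0.921), Ifih1 (0.893), Irgm1 (0.883), Apol9a (0.871) and Igtp (0.867), where the median over all genes was -0.01 and the 99th percentile 0.697. After centring, the genes most like it included Shisa5 (0.969), Xaf1 (0.958), Ifi44 (0.958), Rnf213 (0.952), Gbp3 (0.951), Dhx58 (0.949), Plbd2 (0.937), Limch1 (0.932) and Rtp4 (0.925). Ifit3b is a close copy of Ifit3 and may share its reads. Limch1 was scarce, at 0.0785 to 0.826 CPM over the 18 libraries, where 3 counts correspond to 0.134 to 0.236 CPM. Its r thus rests on few counts. Ifi44 was 14.9 and 17.8 CPM in Space replicates 5 and 6, against 2.199 CPM in Space replicate 4 and 1.16 to 9.84 CPM in the other 15 libraries.

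Interferon transcripts themselves were at or near 0. Of 10 ligand genes in the table, 9 had no count in any library (Ifna1, Ifna2, Ifna4, Ifna5, Ifnb1, Ifne, Ifnk, Ifnl2 and Ifnl3), and Ifng had at most 1 count, where 3 counts correspond to 0.134 to 0.236 CPM per library. This limit covers counting error only. Of the receptors, Ifnar2 was 79.7, 99.1 and 93.0 CPM in Space replicates 4 to 6 and 62.3 to 88.7 CPM elsewhere, and Ifnar1 was 26.6 to 35.7 CPM in all 18 libraries. Of 5 receptor genes tested, 0 were called over all libraries by edgeR. Against BDF1 mice 3.8% of all genes were called in Space and 3.81% in Ground pups. An unadjusted p under 0.05 was found for 2 receptor genes in Space pups against BDF1 mice, 1 in Ground pups against BDF1 mice and 0 in Space against Ground pups. Of all 12847 genes, 2668, 2655 and 1186 had one in these comparisons, in that order. Other tools were not run on this list. Within replicates 4 to 6 Ifngr1, a chain of the interferon-gamma receptor, was higher in both pup groups than in BDF1 mice. Its log2 changes were 0.62 ± 0.13 in Space and 0.69 ± 0.12 in Ground pups, where 12.4% and 15.4% of all genes were called.

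Among 15 signalling factors, 1 was called over all libraries, where 3.8% of all genes were in Space and 3.81% in Ground pups against BDF1 mice. It was Irf2, a factor that binds the same element and is known to restrain it. Against the same BDF1 mice its log2 change was 0.75 ± 0.11 in Space pups (adjusted p = 0.00188) and 0.65 ± 0.11 in Ground pups (adjusted p = 0.00473). Irf9 was 49.3 and 48.0 CPM in Space replicates 5 and 6, against 22.0 to 42.8 CPM in the other 16 libraries. Stat2 did not share this pattern, at 88.6 and 80.0 CPM in those 2 libraries and 57.8 to 93.9 CPM in the rest. Of 11 tested sensors of nucleic acid and their adaptors, Samhd1, a nucleotide hydrolase, fell in both pup groups. Its log2 change was -0.40 ± 0.10 in Space and -0.46 ± 0.10 in Ground pups. Ikbke, a kinase of the pathway, fell in Ground pups by 0.61 on the log2 scale. Over all genes 3.8% were called in Space and 3.81% in Ground pups, with 2.05% lower in Ground pups.

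Of 50 further interferon-stimulated genes listed, 47 were in the table and 43 were tested. In Ground pups 9 of 43 fell and 0 rose over all libraries, where 2.05% of all genes were lower, with a median log2 change of -0.44. They included the RNA sensors Ddx58 (-0.81 ± 0.17, adjusted p = 0.0178) and Dhx58 (-1.08 ± 0.26, adjusted p = 0.0305), the ligase gene Herc6 (-1.06 ± 0.22, adjusted p = 0.0168), Ube2l6, the conjugating enzyme for ISG15 (-0.67 ± 0.13, adjusted p = 0.0145), and Parp9 (-0.57 ± 0.14, adjusted p = 0.0389). The remaining 4 were Oas1c, Eif2ak2, Ifih1 and Ddx60. In Space pups 0 of 43 were called by edgeR over all libraries, where 3.8% of all genes were, and their median log2 change was -0.08. An unadjusted p under 0.05 was found for 9 of 43 and for 2668 of all 12847 genes. In replicates 1 to 3, 5 of 43 fell in Space pups (Zbp1, Adar, Herc6, Ddx60 and Xaf1), while 5 fell in Ground pups and Ifi203 rose. Over all genes 4.9% were called in Space and 2.02% in Ground pups there, in either direction. In replicates 4 to 6, 13 fell and Trim25 rose in Ground pups, while 4 rose and 0 fell in Space pups, namely Oas2 (log2 change 1.16 ± 0.29), Slfn8 (1.35 ± 0.37), Tor3a (1.52 ± 0.46) and Ifi27 (0.77 ± 0.20). Of all genes 7.53% were lower in Ground pups of that set, and 12.4% were called in Space pups. How far these list counts rest on the libraries of high Serpina6 was not tested. Between Space and Ground pups in replicates 4 to 6, 42 of 43 log2 changes were positive with a median of 0.69. By edgeR 31 had an unadjusted p under 0.05, as did 1817 of all 12847 genes, and 0 were called, where 0.0234% of all genes were. The 47 genes summed to 1539, 2517 and 2522 CPM in the 3 Space libraries of that set, from lowest to highest, the higher values being those of replicates 5 and 6. Ground pups had 1316 to 1637 CPM, so that the lowest Space library lay within their range.

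Of 28 tested genes of the interferon-gamma response, 6 fell in Ground pups over all libraries, where 2.05% of all genes did. They were Psmb10 (log2 change -0.996 ± 0.13, adjusted p = 0.00185) and Psmb8 of the immunoproteasome, Tap2 (-0.60 ± 0.09) and Tapbp (-0.65 ± 0.16) of antigen loading, and the GTPase genes Gbp7 (-1.13 ± 0.27) and Ifi47 (-0.91 ± 0.24). Against BDF1 mice Psmb10 also fell in Space pups, by a log2 change of -0.56 ± 0.13 (adjusted p = 0.0257), and B2m rose there (0.45 ± 0.12, adjusted p = 0.0497). Within replicates 4 to 6, 15 of 28 fell in Ground pups and 2 fell in Space pups, Psmb10 and Ifi47, where B2m rose. Over all genes 7.53% were lower in Ground pups and 12.4% were called in Space pups of that set. This list was not refitted without the libraries of high Serpina6 either. The summed level of this list was 3063 to 3451 CPM in Space replicates 4 to 6, of which B2m alone made up 2041 to 2378 CPM. Without B2m, left out after its level was seen, the list summed to 794 CPM in Space replicate 4, 1073 CPM in Space replicate 5 and 1039 CPM in Space replicate 6, and to 998 to 1038 CPM in BDF1 replicates 4 to 6.

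**Figure D4:**
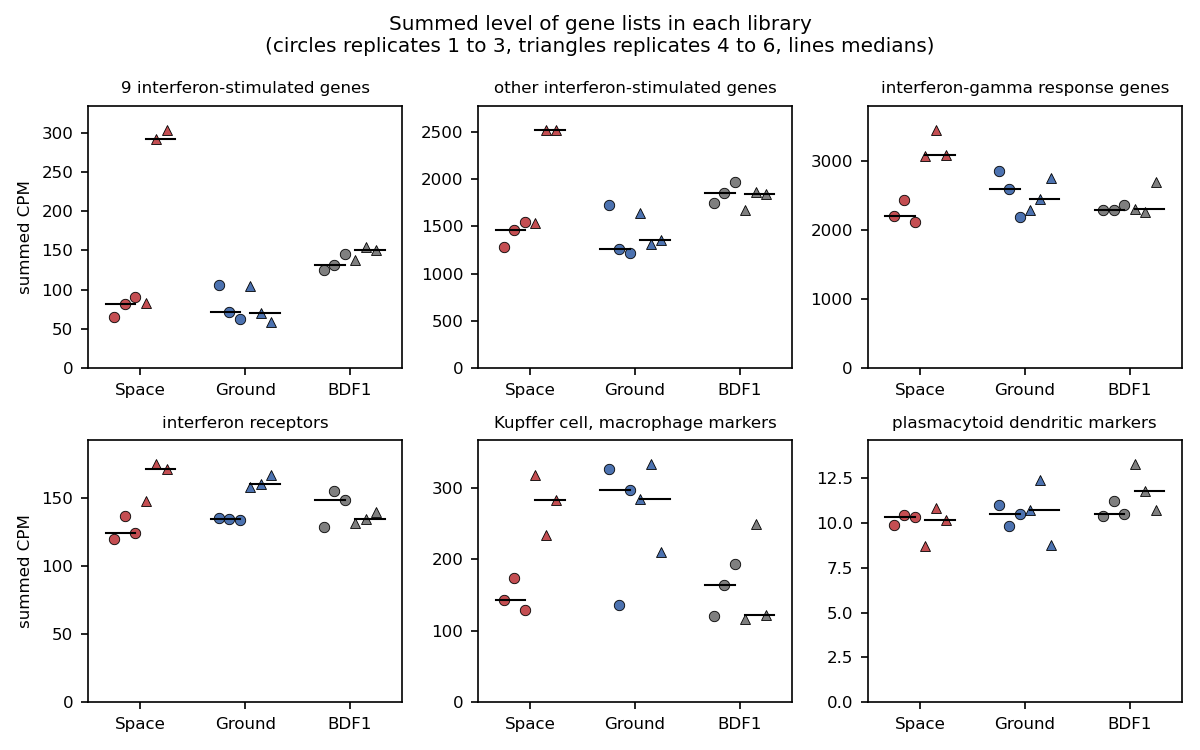
Summed CPM of 6 gene lists in each library, by group, with circles for replicates 1 to 3, triangles for replicates 4 to 6 and lines for medians. The 9 members and the other interferon-stimulated genes are highest in Space replicates 5 and 6 (292 and 304 CPM for the members), whereas the Kupffer cell and macrophage markers are not.

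Among lists of immune cell markers, some stood highest in 1 of those 2 libraries and others did not. The 5 monocyte markers summed to 9.84 CPM in Space replicate 5 and 6.15 CPM in Space replicate 6, against 2.59 to 6.89 CPM in the other 16 libraries. The 6 markers of B and plasma cells summed to 5.22 and 6.15 CPM in Space replicates 5 and 6, against 1.71 to 5.38 CPM in the others. Markers of dendritic cells, of T and NK cells and of neutrophils were highest in other libraries. The 13 Kupffer cell and macrophage markers summed to 234 and 282 CPM in Space replicates 5 and 6, against 317 CPM in Space replicate 4, 333 CPM in Ground replicate 5 and 115.9 to 326 CPM in the other libraries. Of these 13, Cd163 and Folr2 rose in both pup groups against BDF1 mice, where 3.8% of all genes were called in Space and 3.81% in Ground pups. Cd163 rose by a log2 change of 0.94 ± 0.24 in Space and 1.46 ± 0.24 in Ground pups. The sum of the 13 overlapped between pups and BDF1 mice. In replicates 1 to 3 it was 128 to 174 CPM in Space, 136 to 326 CPM in Ground and 121 to 194 CPM in BDF1. In replicates 4 to 6 it was 234 to 317, 210 to 333 and 116 to 249 CPM, in that order. The 5 markers of plasmacytoid dendritic cells, a source of type I interferon, summed to 8.72 to 13.3 CPM over all libraries, none of them at 0 throughout. Genes of haploid germ cells summed to 46.1 CPM in Space replicate 6 and 0.0 CPM in Space replicate 5. Serpina6 was high in Space replicate 4, Ground replicate 5 and Ground replicate 6, whose members summed to 82.8, 69.9 and 58.1 CPM, below the 292, 304 and 105 CPM of the other pups of replicates 4 to 6. The part of Serpina6 and of the marker lists in the differences between these libraries was not tested.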

How the data were processed

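Liver RNA of 18 mice was measured as stranded mRNA libraries sequenced in paired-end mode. Per the labels, the processing used bcl2fastq 2.20, cutadapt 4.6, HISAT2 2.2.1, HTSeq 2.0.2 and mm10. HTSeq's strand setting and its treatment of shared reads are not given in the sources used here. The deposited values are raw counts per gene, with no normalization by the authors. Group and replicate number of each library were read off its label.

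After filterByExpr, counts were scaled by TMM and fitted in edgeR 4.0.16 (R 4.3.3; limma 3.58.1 and DESeq2 1.42.0 as alternatives) by quasi-likelihood over 18 libraries, with group alone or with group and replicate set. Adjusted p-values of the main edgeR fits are Benjamini-Hochberg over all 12847 genes, with calls under 0.05. Alternative fits were adjusted over the genes that each kept, and DESeq2 left some genes without an adjusted p. Shares of all genes called are those of edgeR unless another tool is named, also where a DESeq2 or limma voom count of members stands beside them. Log2 CPM used a prior count of 2. The fits were tested on simulated data. The 9 members and the other gene lists were chosen with earlier results of these data known. Named were all members, at most 20 list genes with the smallest adjusted p over all libraries, and the 10 genes most like the members by each measure, of which 1 gene is not reported here. Serpina6, Alb, Ifnar1, Ifnar2, Ifngr1, Stat2, Irf9, B2m, Psmb8 and genes called within a replicate set were named after their values were seen. Same-numbered libraries deviated together (r 0.231 to 0.654, median 0.487, over 18 pairs). Libraries of other numbers in the same set did so as well (0.220 to 0.730, median 0.529, over 36 pairs). A replicate block was run as an alternative. By the median, same-numbered libraries were no more alike than others of their set, and no litter or batch is given. The block thus rests on no known pairing.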

Additional observations from a re-analysis of the deposited data

Results flagged for a closer look

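Isg15 in BDF1 replicate 3, at 25.0 CPM, stood apart from the other 5 BDF1 libraries, which lay between 18.0 and 20.3 CPM. The distance to the nearest of them was 0.668 of the range of all 6, above Dixon's critical value of 0.625. Of 30 sets of 6 libraries examined, 1 was marked in this way, where chance gives 1.5.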

How the results depend on the processing

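Members called out of 9 moved with the following choices, and the cause was not tested unless stated. The share of all genes called under each choice is not given beside these counts. The counts alone thus do not tell a change in the members from a change over all genes. For Ground pups against BDF1 mice, where 1 was called, total counts in place of TMM factors gave 3, DESeq2 gave 3, the replicate set as a covariate gave 3, and no filter on low counts, the replicate block and leaving out Space replicate 4, Ground replicate 5 and Ground replicate 6 together each gave 0. In replicates 4 to 6 of that comparison, where 2 were called, total counts gave 6, the replicate block gave 1, fitting only the 9 libraries of the set gave 0, and leaving out the 3 libraries gave 1. In its replicates 1 to 3, with 0 called, DESeq2 gave 1, the 9 libraries alone 3 and leaving out the 3 libraries 3. For Space pups against BDF1 mice in replicates 1 to 3, with 0 called, the 9 libraries alone gave 3 and leaving out the 3 libraries 4. In replicates 4 to 6, with 0 called, DESeq2 gave 1 and leaving out the 3 libraries 8. For Space against Ground pups in replicates 4 to 6, with 0 called, no filter gave 2 and DESeq2 gave 6 of the 7 members with an adjusted p. For the change of the Space difference from BDF1 between sets, with 0 called, DESeq2 gave 1 and leaving out the 3 libraries 8. For replicates 4 to 6 against 1 to 3, with 4 called, total counts gave 2, DESeq2 6, limma voom 3 and leaving out the 3 libraries 9. Total-count scaling moved the median log2 change of all genes, by -0.26 in Ground and -0.26 in Space pups over all libraries and by -0.48 and -0.40 in replicates 4 to 6, so that its changes include this shift. The replicate block changed no other count among the 12 comparisons it was run for. It was not run for replicates 4 to 6 against 1 to 3, since each replicate number belongs to 1 set.

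Leaving out 1 library at a time gave 0 to 2 calls for Ground pups against BDF1 mice, 0 to 3 in replicates 1 to 3 and 0 to 5 in replicates 4 to 6. It gave 0 to 3 and 0 to 6 for Space pups against BDF1 mice in the 2 sets, 0 to 8 for Space against Ground pups in replicates 4 to 6, 0 to 7 and 0 to 5 for the changes of the Space difference from BDF1 and from Ground between sets, and 4 to 9 for replicates 4 to 6 against 1 to 3. The highest of each of these ranges but the first came without Space replicate 4, a fit that keeps the 2 highest Space libraries of the set and so is no test of the groups, and where the spread was smaller for Isg15 (SE of 0.30 against 0.48 in Ground pups against BDF1 mice of replicates 4 to 6).

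In comparisons between groups, over all libraries and within each set, signs turned only for log2 changes of at most 0.26 in size under the alternative, none of them called. Of 927 values of the changes between sets and of replicates 4 to 6 against 1 to 3, 23 turned, all in the change of the Ground difference from BDF1 and none called, the largest being Oas1a at 0.51 without the 3 libraries. Among differences of Space pups from BDF1 mice over all libraries, limma voom turned Ifit1 to -0.23, Ifit2 to -0.20, Ifit3 to -0.11 and Rsad2 to -0.013. For Ifit2, total counts gave -0.22, the replicate block -0.10 and the set covariate -0.036. Without the 3 libraries Isg15 turned to 0.062 and Irf7 to 0.084, and the filter of at least 1 CPM in at least 6 libraries turned Irf7 to 0.0045. In replicates 4 to 6 Usp18 turned to -0.18 with total counts and -0.077 with limma voom. For Ground pups in replicates 4 to 6, leaving out the 3 libraries turned Oas1a to 0.26 and Rsad2 to 0.080, and Ifit1 in Space against Ground pups of replicates 1 to 3 turned to -0.027 with total counts. Leaving out 1 library at a time, Space against BDF1 ranged from -0.13 to 0.50 for Ifit1, -0.26 to 0.25 for Ifit2, -0.033 to 0.59 for Ifit3, -0.51 to 0.061 for Isg15, -0.24 to 0.13 for Irf7 and -0.083 to 0.56 for Rsad2, and in replicates 4 to 6 from -0.23 to 0.61 for Usp18. Space against Ground in replicates 1 to 3 ranged from -0.20 to 0.41 for Ifit1, -0.11 to 0.41 for Oas1a, -0.10 to 0.35 for Oasl1 and -0.41 to 0.015 for Usp18. Of 729 single-gene values under the other alternatives, 665 kept their direction and side of the threshold, as did 1383 of 1458 under leaving out 1 library.

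At this depth the scarcest members, Ifit2 and Oas1a, had as few as 16 and 17 counts in a library, and with 3 mice per group and set the 95% interval of every member spanned more than 1 log2 unit in each comparison between groups.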
